A study of Mus musculus with 10 samples.

Results

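Potassium channels are membrane proteins that let potassium ions leave or enter a cell, and they set the resting potential, end the action potential of nerve and muscle cells and shape secretion. Their genes, named *Kcn* in the mouse, encode pore-forming subunits that open with voltage, calcium, sodium, G proteins or ATP, and auxiliary subunits that bind to the pores. Most are used in differentiated neurons, muscle, heart, kidney or sensory cells. EZH2 is the methyltransferase subunit of Polycomb repressive complex 2, which trimethylates lysine 27 of histone H3 (H3K27me3). In embryonic stem (ES) cells this mark is known to lie over CpG-rich promoters of genes of later lineages.

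The genes described here were those whose symbol in the count files begins with *Kcn*, leaving out symbols that end in os, ot or ot1. This gave 96 of 24500 genes, and no measured value was used to choose them. Of the 96, 94 encode channel or auxiliary subunits, and 2 (*Kcnmb4os1* and *Kcnmb4os2*) are opposite-strand transcripts at *Kcnmb4* whose numbered symbols pass the rule. Chromatin immunoprecipitation and sequencing was done in E14 ES cells, a mouse line labelled with the strain 12910la. Control cells are labelled wild-type, and the mutant, called ex14D-*Ezh2* (ex14D) below, carries a CRISPR-Cas9 disruption of *Ezh2* exon 14, so that the splice form lacking that exon is the one left to act. The titles of the mutant libraries read Ezh2KO, a name the study also gives to a different line, while their genotype label says knock out of exon14, and by that label they were taken as ex14D. There were 2 H3K27me3 and 2 EZH2 libraries of each genotype and 1 input library of each, 10 in all. Nothing in the labels says whether replicates came from separate cultures or clones, so the p-values measure only the spread between these libraries.

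H3K27me3 and input reads were counted at promoters, and the reads on genes numbered from 594289 to 1450937 in the 4 H3K27me3 libraries and were 409371 and 416778 in the inputs. Levels are given as CPM (reads per 1000000 reads on genes), and the enrichment of a promoter is log2((CPM + 1)/(input CPM + 1)), with the input of the same genotype. A CPM is a share of a library, so it carries no absolute amount of the mark. Reads on genes were 5.65% to 7.58% of all counted reads in the H3K27me3 libraries and 1.90% and 1.92% in the inputs. A promoter below its input in CPM can therefore lie above it when all counted reads are the base. As a reference, promoters of 6 lineage regulators and 6 pluripotency genes were read, which does not establish the identity of the cells. All 6 lineage regulators were at least 2-fold over input in both genotypes. Of the 6 pluripotency genes 1 was so in control (*Klf4*) and 0 in ex14D. Over all promoters 11.3% were so in control and 9.14% in ex14D.

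The *Kcn* promoters differ widely in CpG content, and 3 neighbouring ones are shown for this difference. *Kcna3*, *Kcna2* and *Kcna10* encode Shaker-type voltage-gated pores, the first known from lymphocytes, the second from axons and *Kcna10* from inner ear hair cells. They lie in a row on chromosome 3, with 65.4 kb between the first pair of start sites and 81.6 kb between the second. In RefSeq's promoter table for GRCm38.p6, which covers 250 bases before to 50 after each start, they stand on the plus strand at chr3:107035912-107036211, chr3:107101317-107101616 and chr3:107182893-107183192. Capitals mark CpG dinucleotides, of which the 3 promoters hold 37, 31 and 0.
*Kcna3*: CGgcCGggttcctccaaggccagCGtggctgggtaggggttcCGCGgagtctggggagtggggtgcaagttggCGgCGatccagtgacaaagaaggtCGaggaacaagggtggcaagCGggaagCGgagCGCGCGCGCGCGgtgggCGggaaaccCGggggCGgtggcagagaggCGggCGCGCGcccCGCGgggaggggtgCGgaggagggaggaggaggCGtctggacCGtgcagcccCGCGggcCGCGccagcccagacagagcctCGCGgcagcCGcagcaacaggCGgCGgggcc
*Kcna2*: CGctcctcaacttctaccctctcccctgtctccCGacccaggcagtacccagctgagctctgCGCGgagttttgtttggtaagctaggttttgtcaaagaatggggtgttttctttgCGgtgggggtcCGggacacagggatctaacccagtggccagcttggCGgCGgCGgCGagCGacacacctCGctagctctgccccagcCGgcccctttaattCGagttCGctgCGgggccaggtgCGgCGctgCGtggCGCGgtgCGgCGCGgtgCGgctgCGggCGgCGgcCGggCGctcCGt
*Kcna10*: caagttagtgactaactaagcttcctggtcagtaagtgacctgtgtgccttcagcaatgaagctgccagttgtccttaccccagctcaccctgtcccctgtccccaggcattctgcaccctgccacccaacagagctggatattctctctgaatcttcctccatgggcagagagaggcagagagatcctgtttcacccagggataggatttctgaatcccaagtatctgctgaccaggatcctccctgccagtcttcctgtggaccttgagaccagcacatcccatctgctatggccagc
The median over the 18175 promoters of the table was 13, and 70 of the 96 *Kcn* genes were found in it.

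Of these neighbours, the pair with CpGs in the sequence shown carried H3K27me3 and the one without did not. The 1 kb windows centred on the start sites hold 103, 69 and 7 CpGs. *Kcna3* was at 219 and 202 CPM in the control H3K27me3 libraries against 51.3 CPM in the control input. *Kcna2* was at 358 and 314 CPM against 46.4 CPM. *Kcna10* was at 28.6 and 10.7 CPM against 46.4 CPM, below its input on this scale. *Kcna3* and *Kcna2* stood clear of the input in both libraries, and no called interval of either antibody in any library spanned a pair of start sites of the cluster.

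Over all 96 promoters, 49 (51.0%) were at least 2-fold over input in both control libraries, here called marked, against 11.3% of all promoters. The median enrichment of the 96 was 1.18 on the log2 scale, and that of all 24500 genes was -1.51. Peaks that the authors called with MACS2 lay over 67 of the promoter windows (1 kb centred on the start site) in both control libraries, against 18.0% of all placed genes, and all 49 marked promoters had one. EZH2 domains lay over 60 of the windows in both control libraries, against 16.8% of all placed genes. Of the 49 marked promoters 47 had an EZH2 domain, and the 2 without were *Kcnh4* and *Kcnt1*. Input reads at single promoters were few, from 4 to 33 in control and 2 to 34 in ex14D, so an enrichment rests on small counts in its denominator.

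**Figure D1:**
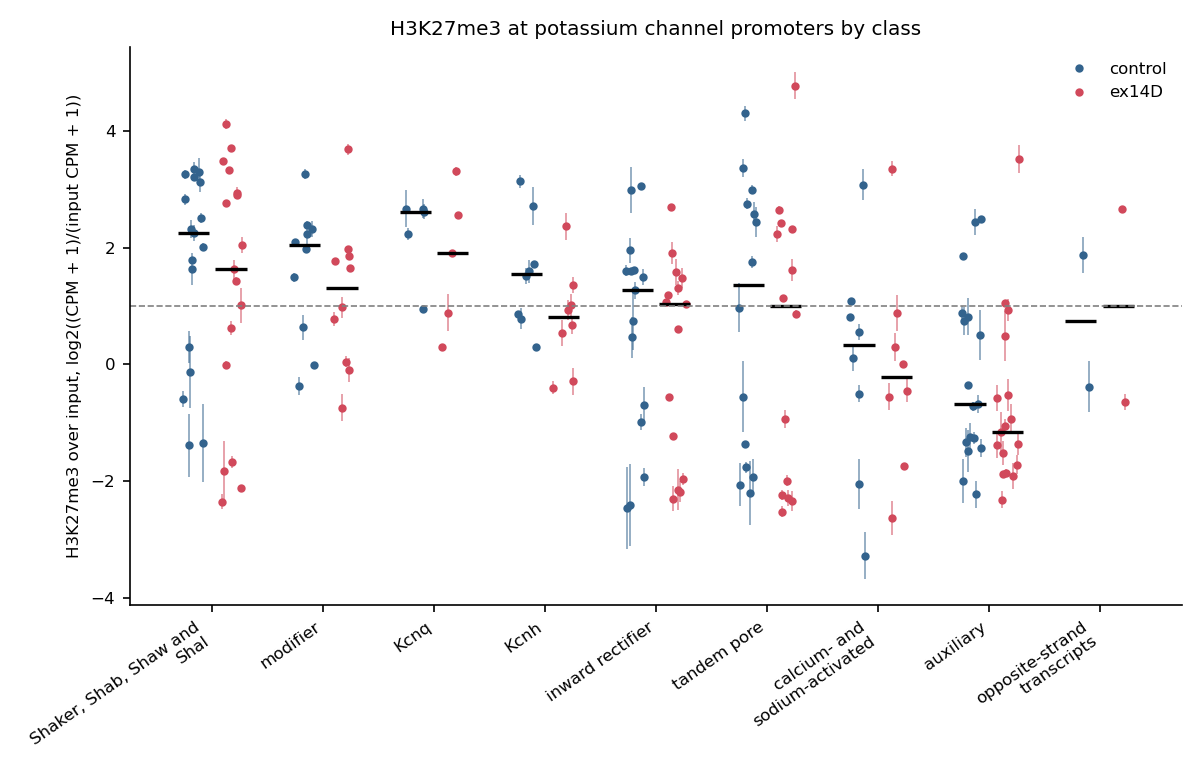
H3K27me3 over input (y axis, log2((CPM + 1)/(input CPM + 1))) at the 96 *Kcn* promoters by class (x axis), in control (blue) and ex14D (red). Each point is the mean of 2 libraries, the thin line joins the 2 library values, the black bar is the class median and the dashed line is 2-fold. The control medians run from 2.62 for the *Kcnq* genes to -0.68 for the auxiliary subunits.

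The classes of channel differed in how many members were marked. The voltage-gated pores of the Shaker, Shab, Shaw and Shal type, which repolarise nerve and muscle cells, were marked at 12 of 17 promoters, with a median enrichment of 2.25. The silent or modifier pores, which join other pores and change their gating, were marked at 7 of 10, with a median of 2.04. The *Kcnq* genes, whose channels carry the cardiac slow current and the neuronal M-current, were marked at 4 of 5, with a median of 2.62. The *Kcnh* genes of the ether-a-go-go family were marked at 5 of 8, with a median of 1.55. These counts describe single families of few genes and were not tested against each other.

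The remaining classes held fewer marked promoters for their size. The inward rectifiers (*Kcnj*), which stabilise the resting potential, were marked at 8 of 15 with a median enrichment of 1.27. The tandem pore leak channels (*Kcnk*) were marked at 7 of 14 with a median of 1.37. The calcium- and sodium-activated channels (*Kcnma1*, *Kcnn*, *Kcnt* and *Kcnu1*) were marked at 2 of 8 with a median of 0.33. The auxiliary subunits and interacting proteins were marked at 3 of 17 with a median of -0.68, the one class whose median was below input in CPM.

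*Kcnk9*, a tandem pore leak channel of cerebellar and other neurons, had the highest enrichment of all members (4.30). Its promoter was at 653 and 545 CPM in the control H3K27me3 libraries and at 29.3 CPM in the input. *Kcnc2*, a fast delayed rectifier pore of interneurons, was at 333 and 285 CPM with an input of 29.3 CPM. *Kcnh3*, an ether-a-go-go-like channel of the forebrain, was at 567 and 481 CPM with an input of 58.6 CPM. In each of these the lower library lay several times above the input, and the replicates were closer to each other than to it.

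Among the inward rectifiers, *Kcnj4* had 422 and 408 CPM with an input of 48.9 CPM, and *Kcnj12* had 443 and 255 CPM with an input of 41.5 CPM. *Kcnma1*, the large-conductance calcium-activated channel, was at 183 and 126 CPM with an input of 17.1 CPM. Its auxiliary subunit of the brain, *Kcnmb4*, was at 85.8 and 87.5 CPM with an input of 14.7 CPM. These 4 were marked, but the start of *Kcnmb4* lies 0.36 kb from that of *Kcnmb4os2* and the window of *Kcnma1* overlaps that of another counted gene, so reads there could not be given to 1 gene.

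At the other end, *Kcnu1*, the sperm channel Slo3, had the lowest enrichment in control (-3.28). It was at 10.1 and 5.33 CPM against 80.6 CPM in the input, whose 33 reads were the most of any member in control. In ex14D its input had 15 reads (36.0 CPM) and its enrichment was -1.75, above that of *Kcnk5* (-2.35). *Kcnk5*, an acid-sensitive leak channel of the kidney, was at 21.9 and 9.60 CPM against 70.8 CPM, and *Kcnj14* was at 10.1 and 3.20 CPM against 36.6 CPM. *Kcnk2*, the mechanosensitive leak channel TREK, was at 18.5 and 16.0 CPM against 61.1 CPM. None of these 4 had a peak in both libraries of either genotype.

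Well-known channel genes of the heart and pancreas did not all carry the mark. *Kcnq1*, the pore of the slow cardiac current, was at 289 and 251 CPM with an input of 56.2 CPM and was marked. Its partner subunit *Kcne1* was at 18.5 and 19.2 CPM with an input of 24.4 CPM and was not. *Kcnh2*, the pore of the rapid cardiac current, was at 125 and 97.1 CPM with an input of 63.5 CPM, had a peak and a domain, and missed the 2-fold limit. *Kcnj11*, the pore of the ATP-sensitive channel of the beta cell, was at 108 and 89.6 CPM with an input of 34.2 CPM and was marked.

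CpG content and H3K27me3 went together over the 96 promoter windows. The CpG observed/expected ratio, the number of CpGs relative to that given by the C and G content of the 1 kb window, had a Spearman correlation with control enrichment of 0.65 (n = 96 promoters, which share the same libraries). With a ratio of at least 0.6, 33 of 41 members were marked, against 18.1% of all placed genes in that range. Between 0.4 and 0.6 it was 14 of 28 members, against 17.3% of genes, and below 0.4 it was 2 of 27 members, against 1.97%. Of the 8 members with a ratio of at least 0.6 that were not marked, *Kcnk5* and *Kcnk2* were the lowest, with ratios of 0.668 and 0.627.

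**Figure D2:**
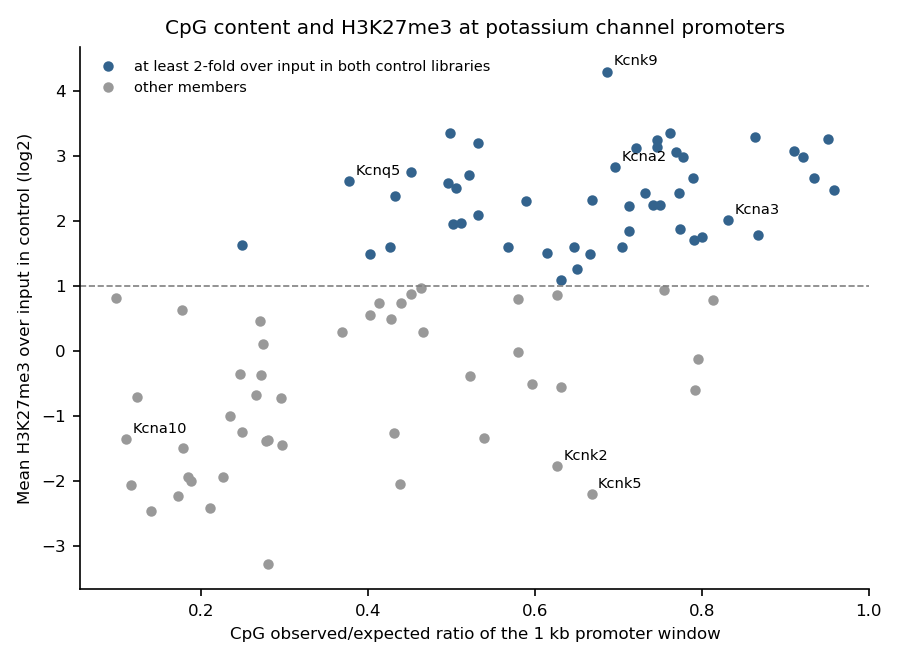
Mean H3K27me3 over input in the 2 control libraries (y axis, log2) against the CpG observed/expected ratio of the 1 kb promoter window (x axis) for the 96 *Kcn* genes. Blue points are the 49 marked promoters, grey points the other 47, and the dashed line is 2-fold, and 33 of the 49 marked promoters have a ratio of at least 0.6.

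In ex14D cells 38 of the 96 promoters (39.6%) were marked, against 9.14% of all promoters, and 36 of these were among the 49 of control. The 13 marked in control alone included *Kcna5*, *Kcna7*, *Kcnab2*, *Kcnh4*, *Kcnh5*, *Kcnj2*, *Kcns2* and *Kcnt1*. *Kcnj3*, a G protein-gated rectifier subunit of heart and brain, was 1 of 2 marked in ex14D alone. The lower count depended on the scaling. When CPM was taken over all counted reads, those on no gene included, 68 promoters were marked in control and 67 in ex14D, and 12 of the 13 were marked in ex14D as well. The share of all promoters marked was then 27.7% in control and 24.4% in ex14D.

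By the peaks as deposited, the count of members differed by 2 between genotypes. In ex14D 65 promoters had an H3K27me3 peak in both libraries, against 16.5% of all placed genes, and 63 of the 67 control promoters kept theirs. The 4 that did not were *Kcnab2*, *Kcnh6*, *Kcnj9* and *Kcnn3*, and those with a peak in both libraries of ex14D alone were *Kcne1l* and *Kcnv2*. With peaks of q under 0.001 alone, the order turned, to 34 members in control and 50 in ex14D. The share of all promoters at this limit is not given here. The ex14D libraries had more counted reads (19151253 and 18184514, against 10525739 and 15683174 in control), and the part of depth was not tested. Of the 63 promoters with a peak in all 4 libraries, 38 (against 38.0% of all such genes) had a narrower peak in both ex14D libraries than in both control libraries, and 0 (against 2.34% of all such genes) had a wider one. The median width over these 63 was 5.775 and 6.76 kb in the control libraries and 4.959 and 4.644 kb in ex14D.

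*Kcnd2*, a pore of the dendritic A-type current, had peaks of 5.08 and 7.56 kb in control and of 3.16 and 3.02 kb in ex14D. *Kcna7* went from 6.81 and 7.46 kb to 3.96 and 2.30 kb. At both, the ex14D peaks were narrower in both libraries. At *Kcnj4* the peaks measured 16.7 and 17.6 kb in control and 18.0 and 16.9 kb in ex14D, so the genotypes overlapped there.

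The change between genotypes was tested with edgeR's quasi-likelihood test on promoter counts, fitted to 14883 promoters with Benjamini-Hochberg adjustment over all of them. Fold changes are ex14D over control after TMM scaling, which moves the median of all promoters by 0.44 on the log2 scale relative to library size alone, so a fold change is higher by that much than the ratio of the CPM values printed. Of the 96 members, 95 were tested (*Kcnd1* had too few reads). H3K27me3 was higher in ex14D at 10 members, against 5.83% of all promoters tested, and lower at 6, against 3.25%. Among the 49 marked members 10 were higher and 5 lower. Of all tested promoters marked in control 28.4% were higher and 4.70% lower.

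The 10 members that rose were *Kcna1*, *Kcna2*, *Kcna3*, *Kcnc4*, *Kcnd3*, *Kcng3*, *Kcnj4*, *Kcnk9*, *Kcnk13* and *Kcnq5*. All were marked in both genotypes and had an EZH2 domain in all 4 EZH2 libraries, and 5 of them were pores of the Shaker, Shaw or Shal type. With library size as the only scaling the 10 fold changes kept their sign, from 0.17 to 1.38, and *Kcnk9* alone passed the threshold. The count moved with single libraries too. It was 12 without control replicate 1, 1 without control replicate 2, 3 without ex14D replicate 1 and 1 without ex14D replicate 2.

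*Kcnk9*, on the minus strand of chromosome 15 from 72506986 to 72547699, changed most. Its promoter was at 653 and 545 CPM in the control libraries and at 1315 and 1804 CPM in ex14D, so the groups did not overlap. The log2 fold change was 1.83 ± 0.22 (SE; edgeR adjusted p = 2.46e-06). The input was also higher in ex14D, at 55.2 CPM against 29.3 CPM in control (23 and 12 reads), and its part in the result was not tested. The peak over it was narrower, at 9.44 and 9.54 kb in control and 7.58 and 7.38 kb in ex14D.

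*Kcnk13*, a tandem pore channel known from microglia, was at 342 and 259 CPM in control and 420 and 460 CPM in ex14D, a log2 fold change of 1.00 ± 0.21 (SE; edgeR adjusted p = 0.00154). *Kcna1*, a Shaker pore of axons, was at 325 and 322 CPM in control and 449 and 486 CPM in ex14D, a change of 0.98 ± 0.20 (adjusted p = 0.00125). *Kcna3* was at 219 and 202 CPM in control and 303 and 281 CPM in ex14D, a change of 0.92 ± 0.20 (adjusted p = 0.00288). In all 3 both ex14D libraries lay above both control libraries even before TMM scaling.

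The other 6 changed less. *Kcnj4*, an inward rectifier of forebrain neurons, was at 422 and 408 CPM in control and 527 and 542 CPM in ex14D (log2 fold change 0.81). *Kcnq5*, a further M-current pore, was at 252 and 300 CPM and then 347 and 345 CPM (0.77). *Kcnd3*, an A-type pore of heart and brain, was at 182 and 162 CPM and then 223 and 197 CPM (0.74). *Kcnc4*, a fast inactivating Shaw-type pore, *Kcna2* and the modifier *Kcng3* had log2 fold changes of 0.69, 0.67 and 0.62. Of the 10, 9 lay above both control libraries in both ex14D libraries by CPM, and *Kcng3*, at 505 and 450 CPM in control and 571 and 502 CPM in ex14D, did not. The edgeR test did not use the inputs. Mean enrichment over input, without TMM scaling, went from 3.06 to 2.70 at *Kcnj4*, 3.25 to 2.94 at *Kcnd3* and 2.62 to 2.57 at *Kcnq5*. It was higher in ex14D at the others of the 10. At *Kcnj4* the input was 48.9 CPM in control and 81.6 CPM in ex14D, and its part was not tested.

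**Figure D3:**
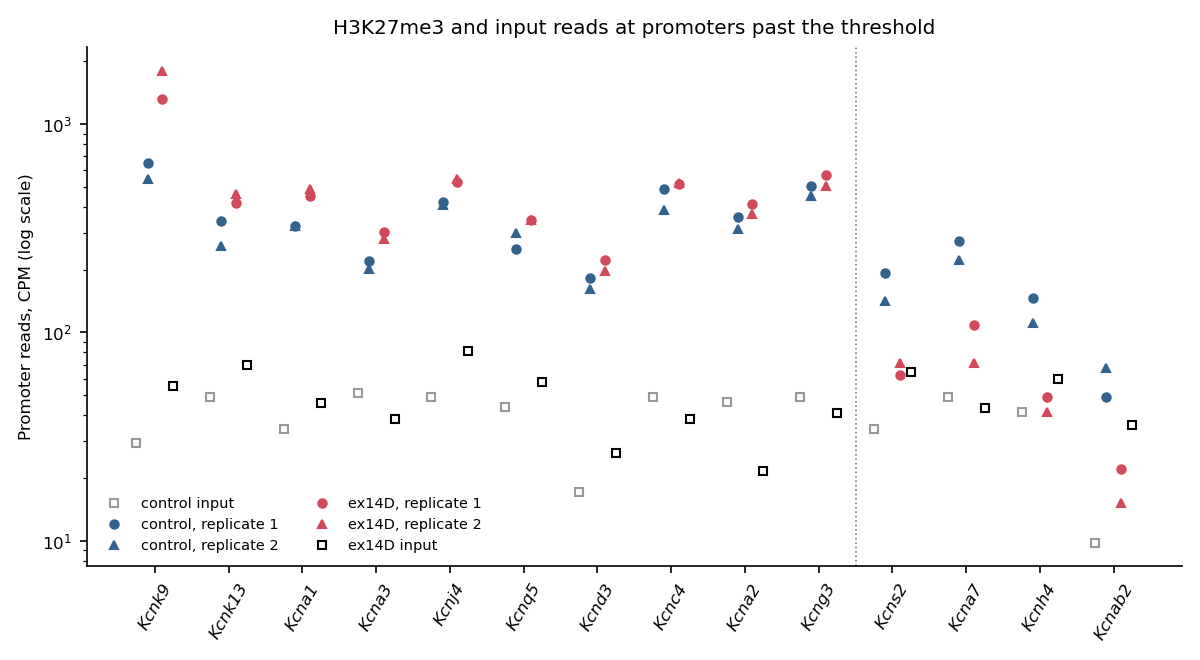
H3K27me3 promoter reads (y axis, CPM over promoter reads, log scale) in each library at the 10 *Kcn* promoters that were higher (left of the dotted line) and at 4 of the 6 that were lower (right) in ex14D. Filled points are H3K27me3 libraries (blue control, red ex14D, circle replicate 1, triangle replicate 2) and open squares are inputs, and *Kcnk9* stands highest, at 1315 and 1804 CPM in ex14D.

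The 6 members that fell included *Kcna7*, *Kcnab2*, *Kcnh4* and *Kcns2*, and in all 6 both ex14D libraries lay below both control libraries. *Kcna7*, a Shaker pore of muscle, went from 274 and 222 CPM to 109 and 71.3 CPM, a log2 fold change of -1.01 ± 0.24 (SE; edgeR adjusted p = 0.00628). *Kcnh4*, an ether-a-go-go-like channel of the brain, went from 146 and 111 CPM to 48.9 and 41.7 CPM, a change of -1.05 ± 0.28 (adjusted p = 0.0152). With library size alone the 6 changes kept their sign.

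*Kcns2*, a modifier pore, went from 192 and 142 CPM to 62.7 and 71.3 CPM. Its input was 34.2 CPM in control and 64.8 CPM in ex14D. *Kcnab2*, a cytoplasmic beta subunit, went from 48.8 and 67.2 CPM to 22.1 and 15.2 CPM, and its window overlaps that of the counted gene *Nphp4*. In ex14D the mean enrichment of *Kcnab2*, *Kcnh4* and *Kcns2* was 0.05 or less. Their inputs were also higher in ex14D. Input reads went from 4 in control to 15 in ex14D at *Kcnab2*, 17 to 25 at *Kcnh4* and 14 to 27 at *Kcns2*. The 4 reads at *Kcnab2* were the fewest of any member in control, so its control enrichment and marked status rest on them. The part of the inputs in these lower enrichments was not tested. Without single libraries the count of falls was 7 and 1 (control replicates 1 and 2) and 2 and 0 (ex14D replicates 1 and 2), and by library size alone it was 16.

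Of 3 ranges of control enrichment, the highest had the highest median fold change. The 17 marked members under 4-fold over input had a median log2 fold change of 0.13, with 0 higher and 1 lower. The 21 between 4-fold and 8-fold had a median of 0.11, with 4 higher and 4 lower, and the 11 at 8-fold or more had a median of 0.62, with 6 higher and 0 lower. The medians of all marked promoters in these ranges were 0.04, 0.40 and 0.93, so from 4-fold up the members lay lower. Over all tested promoters marked in control 28.4% were higher and 4.70% lower. The shares called within each range are not given here, so the counts describe the members alone. Control libraries enter both quantities compared, so the relation is given as a description. Over all 49 marked members the median was 0.14 (SD 0.0758 over the 4 ways to pair 1 control with 1 ex14D library), against 0.33 for all marked promoters tested and -0.03 for all tested. It was -0.31 with library size alone and 0.0064 with all counted reads as the library size.

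A promoter that rose and one that fell are shown for their CpG content, *Kcnk13* at chr12:99964249-99964548 and *Kcna7* at chr7:45405710-45406009, both on the plus strand (GRCm38.p6, RefSeq). They hold 9 and 4 CpGs, again in capitals.
*Kcnk13*: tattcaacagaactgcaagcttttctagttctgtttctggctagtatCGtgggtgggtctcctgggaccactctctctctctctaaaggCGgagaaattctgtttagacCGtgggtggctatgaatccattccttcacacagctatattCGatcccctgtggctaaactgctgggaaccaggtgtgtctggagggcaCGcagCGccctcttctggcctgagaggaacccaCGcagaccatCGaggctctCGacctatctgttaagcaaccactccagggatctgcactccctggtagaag
*Kcna7*: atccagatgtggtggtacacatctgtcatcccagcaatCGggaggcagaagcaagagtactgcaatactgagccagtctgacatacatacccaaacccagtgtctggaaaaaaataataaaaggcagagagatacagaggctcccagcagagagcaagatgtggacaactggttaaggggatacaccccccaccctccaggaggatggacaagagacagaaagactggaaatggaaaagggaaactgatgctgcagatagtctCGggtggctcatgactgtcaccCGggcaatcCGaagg
Both hold fewer CpGs than the median promoter of the table and both were marked in control. The 1 kb windows had CpG ratios of 0.497 and 0.590.

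EZH2 was followed in 2 ways, by the domains the authors called with hiddenDomains over the promoter window and by the reads counted on each gene. In ex14D 43 of the 96 promoters had an EZH2 domain in both libraries, against 10.4% of all placed genes. All 43 were among the 60 of control, and the other 17 lacked a domain in at least 1 ex14D library. These 17 included *Kcna5*, *Kcnab2*, *Kcnh2*, *Kcnj2*, *Kcnj11*, *Kcnk1*, *Kcnq3* and *Kcns2*. By class, the inward rectifiers kept 4 of 9 domains and the *Kcnh* genes 3 of 6, while the Shaker, Shab, Shaw and Shal pores kept 12 of 14 and the tandem pore channels 8 of 9. These class counts were not tested against each other.

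Of the 60 members with a control domain 43 kept it, against 61.9% of all genes with one. Marked members at 8-fold or more in control kept a domain in 11 of 11 cases, against 98.4% of all such genes. Those between 4-fold and 8-fold kept it in 19 of 21 cases, against 91.7%, and of those under 4-fold 7 of the 15 with a domain kept it, against 65.6%. Of the 43 members with a domain in all 4 libraries, 14 had a narrower domain in both ex14D libraries than in both control libraries, against 44.3% of all such genes, and 0 had a wider one, as was so over all such genes. Domain widths come in steps of 1 kb. At *Kcna1* they were 5 and 7 kb in control and 6 and 5 kb in ex14D, and at *Kcnk9* 5 and 6 kb and then 6 and 6 kb, so neither separated the genotypes.

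EZH2 reads on genes numbered from 13628137 to 18403892 per library. The counts followed gene length, so a value covers the gene body as well as the promoter. Of the 96 members, 40 are listed at 0 in all 4 EZH2 libraries (41.7%, against 43.2% of all genes), and they include all members on chromosomes 10, 11, 15, 16, 17 and X. Of these 40, 23 had an EZH2 domain over the promoter in both control libraries, *Kcnk9* and *Kcnj4* among them, so a listed 0 was not read as absence of EZH2. The other 56 were tested with edgeR among 13401 genes, and their levels are given as CPM over EZH2 reads on genes, not corrected for length.

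EZH2 was lower in ex14D at 19 of the 56 members, against 7.88% of all genes tested. It was higher at 0, against 0.0522%. With DESeq2 0 were higher too, and without adjustment 1 was higher at the same threshold. Over the 56 the log2 fold change had a median of -0.19 (SD 0.0389 over the 4 pairings), against 0.02 for all genes tested. Of the 37 tested members with a control domain 18 were lower, against 39.0% of all such genes, with a median of -0.28 against -0.22. Of the 19 without a domain 1 was lower, *Kcnj9*, a G protein-gated rectifier subunit. Leaving out either control replicate took the count of falls to 0, over all genes too, whereas it was 28 without ex14D replicate 1 and 22 without ex14D replicate 2.

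The falls were largest at short genes. *Kcna5*, the Shaker pore of atrial muscle, was at 14.2 and 13.0 CPM in control and 7.48 and 4.44 CPM in ex14D, a log2 fold change of -1.25 ± 0.20 (SE; edgeR adjusted p = 0.0112). *Kcns1*, a modifier pore of sensory neurons, was at 61.2 and 53.4 CPM and then 31.9 and 18.6 CPM, a change of -1.24 ± 0.21 (adjusted p = 0.0123). *Kcnk4*, the mechanosensitive leak channel TRAAK, was at 45.9 and 51.1 CPM and then 25.9 and 20.1 CPM, a change of -1.13 ± 0.12 (adjusted p = 0.00356). The groups did not overlap at these or at any of the other 16 called.

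*Kcnk15*, a tandem pore subunit, was at 25.2 and 22.6 CPM in control and 12.5 and 10.7 CPM in ex14D (log2 fold change -1.08). *Kcnf1*, a modifier pore, was at 31.5 and 26.9 CPM and then 17.4 and 11.3 CPM (-1.08). *Kcna3* was at 39.5 and 39.7 CPM and then 24.7 and 15.0 CPM (-1.06). *Kcna7* was at 20.1 and 23.7 CPM and then 12.5 and 10.3 CPM (-1.0), and *Kcna1*, the highest of them in reads, was at 137 and 121 CPM and then 83.4 and 55.5 CPM (-0.94). In each of them ex14D replicate 2 was the lowest library.

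Among the 37 tested members with a control domain, 22 were shorter than 50 kb and 15 were at least 50 kb long. Of the 22 short genes 17 were lower, with a median of -0.64, and all 22 had a negative value. The median of all 1422 such genes was -0.51. Of the 15 long genes 1 was lower, the modifier pore *Kcns3* (-0.53), with a median of 0.01, and the median of all 991 such genes was -0.04. Over both lengths 39.0% of all tested genes with a control domain were lower. The shares of all genes called or negative at each length are not given here, so these counts describe the members alone. The Spearman correlation of gene length with the fold change was 0.88 over the 37 members, which share the same libraries. *Kcnd2*, 514 kb long, had 396 and 398 CPM in control and 422 and 426 CPM in ex14D (0.05), and its EZH2 domain was present in all 4 libraries. The part of gene body reads in the values of long genes was not tested.

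**Figure D4:**
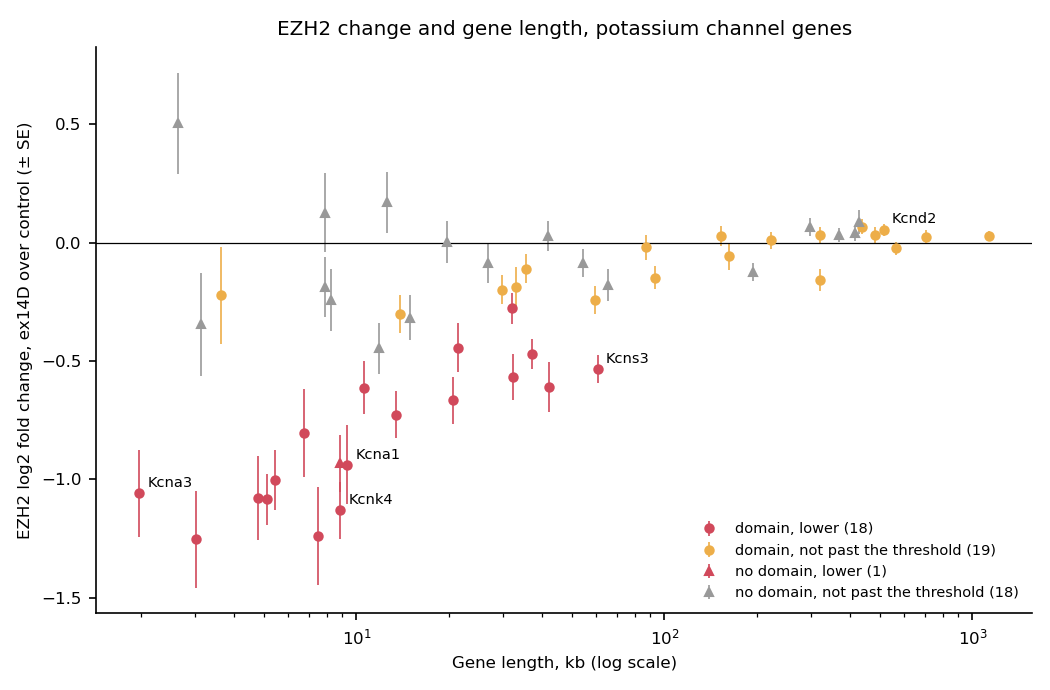
EZH2 log2 fold change of ex14D over control (y axis, ± SE) against gene length (x axis, kb, log scale) for the 56 *Kcn* genes with EZH2 counts. Circles have an EZH2 domain over the promoter in both control libraries and triangles do not, red marks the 19 genes lower in ex14D, and the one red circle beyond 50 kb is *Kcns3*.

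Both measures could be compared at 56 members. At *Kcna1*, *Kcna2*, *Kcna3* and *Kcnc4* the promoter H3K27me3 rose relative to other promoters of the same libraries, and the EZH2 reads on the gene fell. The rise held at *Kcna1* and *Kcna3* but not at *Kcna2* and *Kcnc4* when all counted reads were the library size, at none of the 4 with library size alone, and at all but *Kcna2* with DESeq2. *Kcna2* was at 358 and 314 CPM of H3K27me3 in control and 415 and 369 CPM in ex14D (log2 fold change 0.67 ± 0.20 SE, edgeR adjusted p = 0.0297). Its EZH2 reads went from 58.9 and 58.2 CPM to 40.4 and 32.7 CPM (-0.73 ± 0.10, adjusted p = 0.00655). *Kcnc4*, on chromosome 3 as well, was at 486 and 387 CPM and then 513 and 519 CPM of H3K27me3 (0.69), and its EZH2 reads went from 60.9 and 58.3 CPM to 42.9 and 34.6 CPM (-0.67). The other 2 members with a rise of H3K27me3 that were tested for EZH2, *Kcnd3* and *Kcnq5*, are 222 and 564 kb long and had EZH2 changes of 0.01 and -0.02.

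*Kcna7* was the one member lower in both, with changes of -1.01 for H3K27me3 and -1.0 for EZH2. Across the 56 members the changes of the 2 antibodies had a Spearman correlation of -0.13. The H3K27me3 changes are on a scale in which the median promoter stays near 0, so a rise there is relative to the other promoters of the same libraries. By Western blot the paper reports a lower level of H3K27me3 in ex14D-*Ezh2* cells than in control cells.

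**Figure D5:**
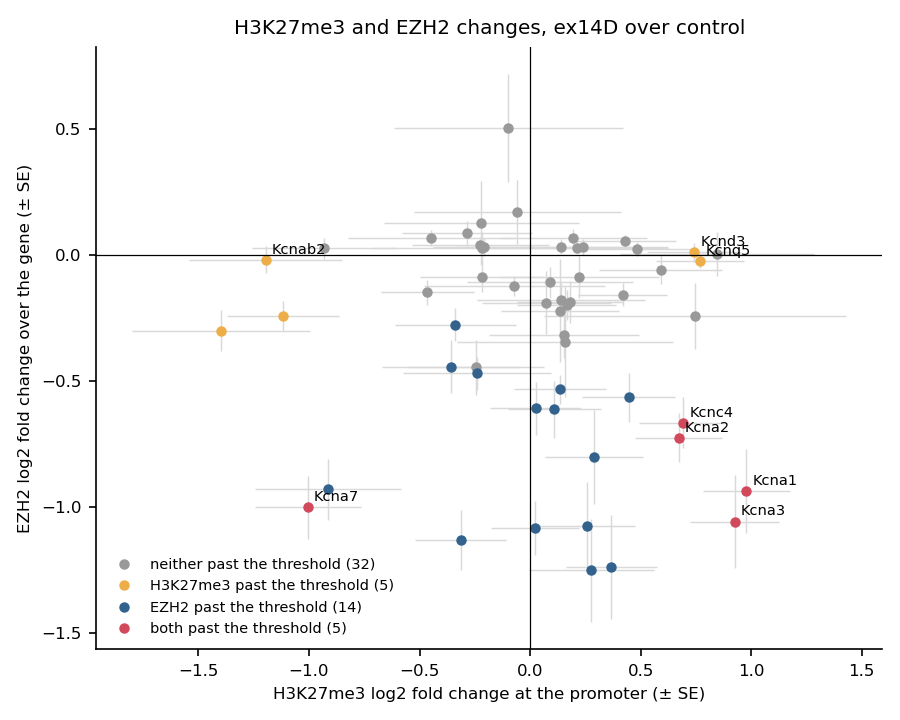
EZH2 log2 fold change over the gene (y axis, ± SE) against H3K27me3 log2 fold change at the promoter (x axis, ± SE), ex14D over control, for the 56 *Kcn* genes tested for both. Red points passed the threshold for both antibodies, namely *Kcna1*, *Kcna2*, *Kcna3* and *Kcnc4* at the lower right and *Kcna7* at the lower left.

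The remaining well-known members gave these values. *Kcnc1*, a Shaw-type pore of fast-spiking neurons, was at 491 and 353 CPM of H3K27me3 in control and 323 and 306 CPM in ex14D. The CPM ranges of the genotypes did not overlap, but after TMM scaling the log2 fold change was 0.03 and did not pass the threshold. *Kcnc1* fell in EZH2 by 0.61 on the log2 scale. *Kcnh2* fell in EZH2 by 0.28 on the log2 scale (edgeR adjusted p = 0.0441), a call lost with library size alone, with all counted reads and with DESeq2, and its domain was absent in 1 of 2 ex14D libraries. *Kcnq1* had changes of 0.42 for H3K27me3 and -0.16 for EZH2, and *Kcnma1* of 0.48 and 0.02, none past the threshold.

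Smaller values were found at further members of these families. *Kcnq3*, a pore of the M-current, was at 97.6 and 101 CPM of H3K27me3 in control and 59.3 and 59.3 CPM in ex14D. *Kcnj2*, the classical inward rectifier of muscle, was at 97.6 and 100.3 CPM and then 64.1 and 68.1 CPM. *Kcnj3* was at 63.9 and 129 CPM and then 122 and 96.2 CPM, so its genotypes overlapped. None of these passed the threshold, with log2 fold changes of -0.30, -0.14 and 0.59.

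*Kcnt1*, the sodium-activated channel Slack, was at 95.9 and 93.9 CPM of H3K27me3 in control and 69.6 and 49.7 CPM in ex14D (log2 fold change -0.22). *Kcnn2*, the small-conductance calcium-activated channel, was at 70.7 and 75.8 CPM and then 55.8 and 36.1 CPM (-0.22). *Kcnip3*, a calcium-binding partner of A-type pores, was at 15.1 and 21.3 CPM and then 15.9 and 14.4 CPM (0.14). These values were under its inputs in every library on the CPM scale, which leaves out reads on no gene. *Kcnk1*, the leak channel TWIK, was at 16.8 and 40.5 CPM and then 26.2 and 20.8 CPM (0.09), with an EZH2 domain in both control libraries but no H3K27me3 mark. None of the 4 changes passed the threshold.

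A list of other excitable-membrane genes was read in the same way, namely voltage-gated sodium and calcium channel subunits, the *Hcn* pacemaker channels and partner proteins of potassium channels. Of its 53 genes, 27 (50.9%) were marked in control and 21 (39.6%) in ex14D, close to the 51.0% and 39.6% of the *Kcn* genes. Of 51 tested for H3K27me3, 6 were higher and 3 lower, against 5.83% and 3.25% of all promoters tested. Among all tested promoters marked in control those shares were 28.4% and 4.70%. Of 38 tested for EZH2, 8 were lower and 0 higher, against 7.88% and 0.0522% of all genes tested. Among all tested genes with a control domain 39.0% were lower.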

How the data were processed

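The authors aligned reads to mm10, counted them with HTSeq and deposited whole-read counts per gene without normalization. The submitters' notes name Trimmomatic, Bowtie2, MACS2, ChIPseeker and HTSeq. Per the methods the counts are of promoters, but the EZH2 counts followed gene length. Peaks were called by MACS2 in each library, and the deposited fold enrichment (a ratio), −log10 p-value and −log10 q-value are the authors' own. The deposited H3K27me3 hiddenDomains positions did not match this assembly and were not used. Library sizes left out the reads that fell on no gene, 92.0% to 98.0% in the H3K27me3 and input files and 33.8% to 34.9% in the EZH2 files.

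Start sites were the 5′-most of curated RefSeq transcripts on GRCm38 (24346 of 24500 genes placed, with all 96 members). The start the authors counted at may differ. An interval counted with an overlap of at least 1 bp in both libraries. Genotypes were compared with edgeR 4.0.16 in R 4.3.3 (TMM, filterByExpr, quasi-likelihood test, adjusted p under 0.05, all genes in the fit), separately for each antibody, and standard errors are approximate. The procedure was also run on simulated counts with a common spread for all genes, which does not measure its error in these data. Replicates differed by more than sampling noise (chi-square per degree of freedom 1.48 to 3.95).

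Genes were named by rule: per class, the 2 highest marked and the lowest enrichments in control, up to 8 rises and 8 falls per antibody with 1 direction in all pairings, and a list of well-known channels. Others (*Kcnd1*, *Kcne1l*, *Kcnj9*, *Kcnn3*, *Kcns3*, *Kcnmb4os1*, *Kcnmb4os2*) were named after their values were seen. Some members that the rule names are not reported here by name. The members and lists were chosen with earlier results of these data known. Alternatives covered scaling, DESeq2 1.42.0, filters, thresholds, windows and each library left out. Other calculations used Python 3.11.15, pandas 2.3.3 and pysam 0.24.0.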

Additional observations from a re-analysis of the deposited data

How the results depend on the processing

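Levels in control moved with the definition of a marked promoter. At 4-fold over input 31 members were marked in control and 20 in ex14D, and with CPM over all counted reads 67 were marked in ex14D. The share of all promoters at 4-fold is not given here, so the difference is not one of the members alone. With peaks of q under 0.001, 34 members had a peak in control and 50 in ex14D, and no share of all promoters at this limit is given. For H3K27me3 the median change of marked members was -0.31 with library size only, which reverses it, 0.0064 with all counted reads, 0.27 with scaling centred on unmarked genes and 0.0483 with DESeq2. Library size only gave 16 falls and 1 rise, all counted reads 5 rises, and an unadjusted p under 0.05 13 falls. Leaving out 1 library gave 0 to 7 falls and 1 to 12 rises. For EZH2 the median was -0.15 with library size only and -0.25 to -0.13 without 1 library, the falls ranged from 0 to 28 without 1 library, and 1 rise had an unadjusted p under 0.05. Leaving out a library leaves 1 in its group, which is assumed to vary like the others. The causes of these differences were not tested.

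Replicate numbers were not taken to pair libraries, since same-numbered deviations correlated at -0.10 for H3K27me3 and -0.03 for EZH2. With the replicate number as a block, 6 members rose and 5 fell in H3K27me3 and 17 fell in EZH2, with the rises at *Kcna2* and *Kcnc4* and the EZH2 fall at *Kcnh2* among the calls lost. No member called for either antibody changed sign in any setting. Low input reads limit each enrichment, and the 40 members listed at 0 could not be tested for EZH2.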
